A study of Mus musculus with 4 samples.

Results

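Probes for intergenic long noncoding RNA regions make up 16194 of the 55681 probes (29.1%) of the array used here. They were chosen by name alone: every probe that is not a control and whose name in the array files is a stretch of genome with a strand, in place of a transcript accession. The probes stand for 4610 regions with strand, 2318 forward, 2289 reverse and 3 whose name has no strand, at 3543 pairs of coordinates. A region had 1 to 10 probes, with a median of 3, and its length ran from 62 to 7128487 bases with a median of 10676. Probes of 1 region share a target, and 859 places held more than 1 overlapping region of the same strand, so neither probes nor regions are independent of each other.

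Thymospheres are floating clusters that grow when dissociated thymus is kept in dishes to which cells cannot attach. RNA was measured in 2 samples of adult thymospheres, from mice 5 to 6 weeks old, and in 2 samples of embryonic thymospheres, from embryos at embryonic day 14.5. All came from C57Bl6/N mice and grew in a medium with B27 supplement, hydrocortisone, insulin, EGF and bFGF, refreshed on day 5 and harvested on day 7. Each sample gave 25 ng of total RNA, labelled with Cy3 and hybridised to its own 1-colour array, all 4 on 1 slide. The spheres were lysed whole, so each value is a mean over all the cell types they held. The comparison addresses how embryonic spheres differ from adult ones. The labels do not say which samples are biological and which technical replicates, and the spread that the p-values measure, that between these samples alone, may be technical. Each group occupied its own positions on the slide, so that position cannot be told apart from group.

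Long intergenic noncoding RNAs are transcripts from between protein-coding genes that carry no long reading frame. Some hold nuclear structures together, some guide chromatin-modifying complexes or act on neighbouring genes, and for most no function is known. As a class they are present at lower levels than messenger RNAs and are more restricted to particular tissues and stages. The array files give these probes only coordinates, on mouse genome build mm9 per the file headers. No annotation of that build was used here, so no region is given a nearest gene, and whether a region is intergenic or noncoding was not checked.

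All signals below are log2 of the processed spot signal minus the 75th percentile of the same array, so 0 is the 75th percentile. Differences are embryonic minus adult. "Well above background" is the scanner software's own flag. The 75th percentile of the processed signal was 132 on adult array 1, 66.0 on adult array 2, 126 on embryonic array 1 and 61.5 on embryonic array 2. Spots marked as outliers were left out, 2756 on adult array 2 and 95 to 185 on each of the other arrays. No spot was saturated, and none of the 308 negative control spots per array was well above background.

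Marker genes, named through their RefSeq accessions, were read beside the regions. Counted on both arrays of a group, adult first, 5 and 10 of 14 thymic epithelial genes were well above background, and 11 and 12 of 12 general epithelial genes. All 11 fibroblast genes were detected on both arrays of each group, and of 8 macrophage genes 7 and 7. Of 11 T lineage genes 5 and 3 were detected, with Cd3d on no array, of 7 endothelial genes 6 and 2, of 5 B lineage genes 1 and 0, and of 5 erythroid genes 1 and 1. Several lists moved with the groups. At an adjusted p of 0.05 in limma, where 23.7% of all tested probes were higher and 25.1% lower in embryonic spheres, 6 of 10 tested thymic epithelial genes were called higher and 0 lower (median log2 difference 2.02), 7 of 12 epithelial genes higher and 1 lower (1.75), and 0 of 6 endothelial genes higher and 3 lower (-2.01). Of 7 macrophage genes 2 were higher (1.03), and of 11 fibroblast genes 3 were higher and 1 lower (0.57). Genes were tested when both arrays of 1 group or the other showed them well above background. A gene detected in 1 group only had to be bright there, which largely set its direction. For the thymic epithelial and endothelial lists, which differed most in detection, these calls and medians therefore describe that filter as well as the spheres. The part of these cell types in the region signals was not tested. In whole spheres, fewer cells of a type and less RNA per cell cannot be told apart.

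Region probes were detected far more often on the adult arrays. The share of the 16194 probes well above background was 60.4% on adult array 1, 29.4% on adult array 2, 27.4% on embryonic array 1 and 13.7% on embryonic array 2. Both adult shares lay above both embryonic shares, but adult array 2 and embryonic array 1 were close. The arrays of a group differed by more than these arrays did. In each group the share was higher on array 1 than on array 2, as was the 75th percentile of the signal. A total of 5546 region probes were not well above background on any array. With the scanner's weaker flag, which asks only for a positive and significant signal, the shares were 85.6%, 59.2%, 56.9% and 41.4%, in the same order.

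Other probe classes were detected differently on the same arrays. Probes for RefSeq messenger RNAs were well above background at 79.0%, 55.5%, 63.4% and 51.1%, and probes for RefSeq noncoding RNAs at 61.5%, 32.8%, 31.4% and 18.6%. On each array the share of region probes lay closer to that of the noncoding transcripts than to that of the messenger RNAs. For 1503 probes to olfactory, vomeronasal, taste and trace amine receptors, which are mostly restricted to sensory cells, the shares were 51.4%, 23.2%, 6.12% and 2.26%. From adult array 2 to embryonic array 1 the receptor share fell from 23.2% to 6.12%, while that of the regions was 29.4% and 27.4%. Those arrays differ in replicate number as well as in group. The part of the adult signal of receptor probes in the region results was not tested.

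**Figure D1:**
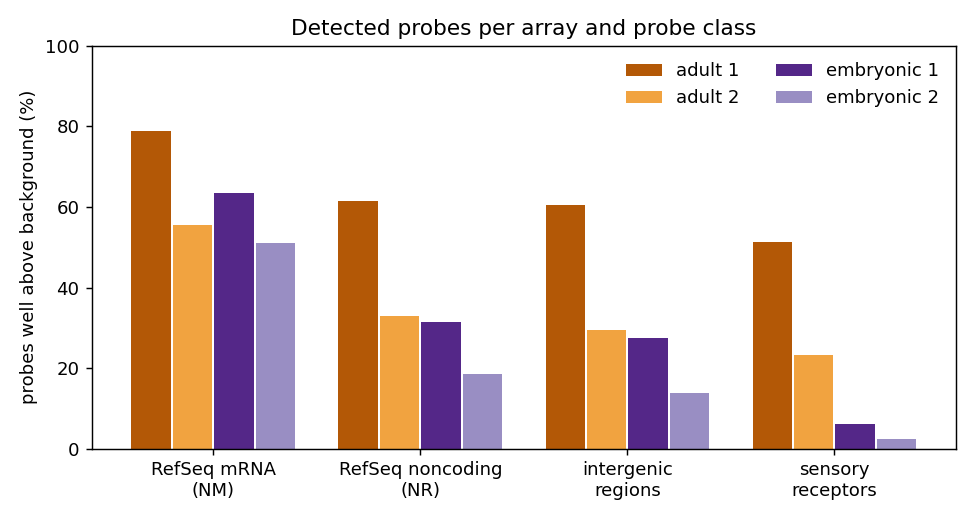
Share of probes well above background (percent, vertical axis) on each of the 4 arrays, for RefSeq messenger RNAs, RefSeq noncoding RNAs, intergenic regions and sensory receptors. Region probes fall from 60.4% on adult array 1 to 13.7% on embryonic array 2, and receptor probes from 51.4% to 2.26%.

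Probes entered the test only when both arrays of 1 group or the other showed them well above background, which held for 5045 region probes (31.2%) and not for 11149. In limma, at a Benjamini-Hochberg adjusted p of 0.05 over all 27049 tested probes, 479 region probes (9.49%) were higher and 2420 (48.0%) lower in embryonic spheres. Over all tested probes, regions included, 23.7% were called higher and 25.1% lower. The median log2 difference was -1.31 over the tested region probes and 0.58 over all tested probes. Of the tested region probes 63 lacked a value on 1 array, where the spot was an outlier, and were fitted on the other 3.

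These counts rested on the adult arrays, the scaling and the filter. With either adult array left out, calls in limma were lost over the whole array, for region probes and all other probes alike. A lone array of either group has no spread of its own, and calls remained with either embryonic array left out. The cause of the loss was not tested. The region median was -1.29 without adult array 1 and -1.29 without adult array 2, against 0.64 and 0.47 over all tested probes. Of the region calls made with all 4 arrays, 16.5% were higher in embryonic spheres. That share became 49.3% (1817 higher, 1865 lower) when the median of all probes was set to 0 on every array, where 61.3% of all tested probes were higher and 18.4% lower. It became 2.08% (60 and 2828) with the 75th percentile taken over probes detected on all 4 arrays, against 2.55% and 31.5% of all tested probes. In the deposited value table it was 29.7% (626 and 1479), against 21.4% and 17.4% of all tested probes. The region median minus the median of all tested probes was -1.89, and -0.60 with normexp, -0.94 with quantile normalization, -0.47 in the deposited value table and -0.29 among probes detected on all 4 arrays.

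The direction of a call went with the arrays on which the probe was detected. Of 2851 region probes tested through the adult arrays only, 2343 were lower and 0 higher in embryonic spheres, and of 434 tested through the embryonic arrays only, 196 were higher and 22 lower. A probe that passes the filter through 1 group had to be bright there, so these counts describe the filter as much as the spheres. The same split was not computed over all tested probes, so these shares do not set region probes apart from other probes. Of the 2420 lower calls, 2086 (86.2%) were below that detection level on both embryonic arrays. Those probes have only a lower bound on their change: the mean of the bright group over the mean, in the dim group, of its own signal or, where that was higher, the lowest signal of any probe well above background on that array. On this bound 1622 of the 2086 (77.8%) were more than 2-fold lower in embryonic spheres, and the median was at least 2.95-fold. Of 336 tested receptor probes 293 were called lower and 3 higher. Of the 479 higher calls of regions, 72 were dim on both adult arrays, with a median of at least 3.06-fold.

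**Figure D2:**
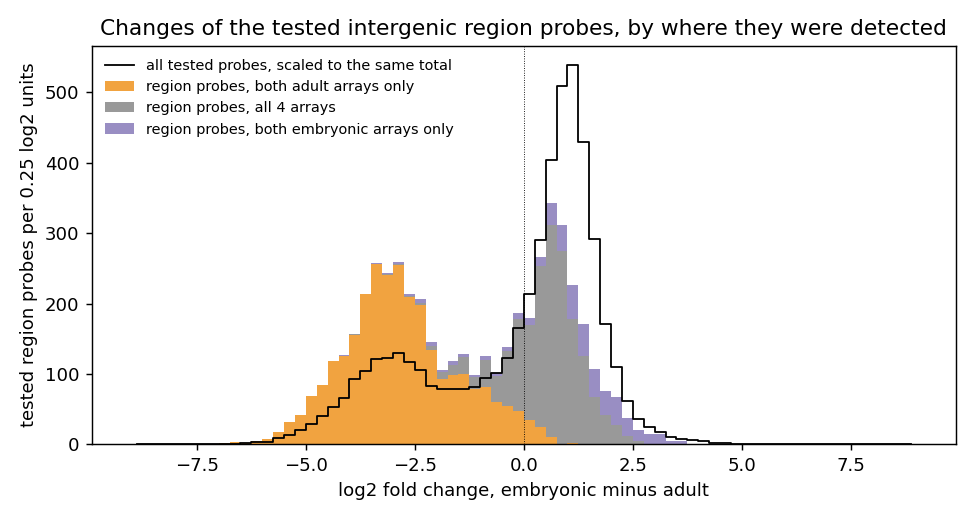
Number of tested region probes per step of 0.25 log2 units (vertical axis) by log2 difference, embryonic minus adult (horizontal axis), stacked by the arrays on which the probe was well above background, with all tested probes as a line scaled to the same total. The 2851 probes detected through the adult arrays only lie around a median of -2.96, and the 1760 detected on all 4 arrays around 0.64.

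Where a region probe was measured in both groups, the balance was the other way. Of 1760 region probes well above background on all 4 arrays (10.9% of all region probes), 283 (16.1%) were called higher and 55 (3.13%) lower. Among all probes detected on all 4 arrays 31% were called higher and 2.06% lower. The embryonic arrays both lay above the adult arrays for 1037 region probes (58.9%) and both below for 173 (9.83%), against 72.6% and 6.83% of all probes of this kind. The median log2 difference was 0.64, against 0.92 over all such probes. The sign of this median followed the scaling: once arrays were centred on the median of the probes detected on all 4 arrays it was -0.28, with 11 region probes called higher and 160 lower, against 2.05% and 6.27% of all probes in that fit. With the 75th percentile taken over those probes it was -0.30, with 10 higher and 167 lower.

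Levels of these 1760 probes followed the groups. Pearson r across probes was 0.949 for the adult pair of arrays, 0.933 for the embryonic pair and 0.862 to 0.887 for pairs of different groups, a description with no test.

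Rises were named first among probes measured on all 4 arrays whose groups did not overlap, so greater differences exist outside this choice. The pool was 283 higher probes in 180 regions, and the 10 with the greatest difference, 1 per region, lay between 2.42 and 3.04 on the log2 scale. The leading probe, in chr17:56687541-56694616 on the reverse strand, read -0.87 and -1.98 in adult and 0.99 and 2.23 in embryonic spheres. Its difference was 3.04 (SE 0.60, adjusted p = 0.0119 in limma). All 5 probes of that region were tested, 3 were called higher and 1 lower, and their differences ran from -1.84 to 3.13. The region therefore held probes that changed in opposite directions. On the same strand, 2 overlapping regions had 4 tested probes with differences from -0.50 to 1.00, of which 0 were called.

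A stretch of chromosome 19 held several of the higher probes. The probe of chr19:5771425-5848475, a reverse-strand interval of 77051 bases, read 0.56 and 0.95 in adult and 3.27 and 3.97 in embryonic spheres, a difference of 2.87 (SE 0.42, adjusted p = 0.00661). Inside it lies chr19:5798135-5800557, also reverse, whose leading probe read 3.36 and 4.29 in adult and 5.72 and 7.10 in embryonic spheres, a difference of 2.59 (SE 0.60, adjusted p = 0.018). All 3 probes of that region were called higher, by 2.28 to 2.59. Beside it, chr19:5801802-5802597 on the reverse strand had 3 probes with differences of 2.07 to 2.10. The fourth reverse-strand region within the interval, chr19:5834117-5835940, had 3 probes with differences of 0.26 to 0.71, none of them called. In all, 10 of 11 reverse-strand probes there were detected on all 4 arrays and 7 were called higher, while of 10 tested forward-strand probes 2 were higher and 1 lower. The choice of this stretch, and of those on chromosomes 12 and 13 below, was made after their values were seen.

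Chromosome 12 supplied a further cluster. The probe of chr12:110894095-110899517, forward, read -1.78 and -1.58 in adult and 1.21 and 0.92 in embryonic spheres, a difference of 2.75 (SE 0.36, adjusted p = 0.0057). Both probes of the region were higher, the other by 1.80. In chr12:110842154-110883594, forward, the leading probe read -0.93 and -0.71 in adult and 2.38 and 1.19 in embryonic spheres, a difference of 2.61 (SE 0.49, adjusted p = 0.0111), and the other probe was higher by 2.14. The groups did not overlap for either leading probe. From the start of that region to chr12:110988678, 10 forward regions, 1 of which starts just before it, and 4 reverse regions overlapped. Of 18 tested forward probes 10 were higher and 4 lower, and of 7 tested reverse probes 1 was higher and 5 lower. Of the 8 forward probes detected on all 4 arrays, 6 were higher and 0 lower.

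Chromosome 13 held a cluster in which higher calls lay on 1 strand. The leading probe of chr13:94182877-94203935, reverse, read -1.54 and -1.41 in adult and 1.07 and 0.89 in embryonic spheres, a difference of 2.46 (SE 0.35, adjusted p = 0.00646). Of 10 tested reverse-strand probes in regions that overlap these coordinates 6 were higher and 3 lower, and the 6 were all detected on all 4 arrays. All 6 tested forward-strand probes of such regions, 1 of them in a region that starts before the interval, were lower, by a median of -2.72, of which 1 was detected on all 4 arrays. Differences between strands were not tested.

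Among the rest of the 10, chr11:95627874-95640824, forward, had the most probes of its own called higher. Its leading probe read -0.57 and -0.80 in adult and 2.19 and 1.70 in embryonic spheres, a difference of 2.63 (SE 0.38, adjusted p = 0.00652). Of its 10 probes 7 were tested and 6 were higher, 4 of them detected on all 4 arrays, while the seventh differed by -0.07. A same-strand region inside it, chr11:95630200-95631470, had 2 tested probes, which differed by -0.61 and -0.84 and were not called. In chr6:11996975-12037300, forward, 4 of 5 probes were tested, all on all 4 arrays, and 3 were higher, by 2.07 to 2.42. The leading probe read 0.07 and -0.18 in adult and 2.33 and 2.40 in embryonic spheres. Of the 10 probes of chr4:126710640-126721240, forward, 5 were tested and all 5 were higher, by 1.45 to 2.60. The leading probe of chr5:123582742-123588117, reverse, was higher by 2.45 (SE 0.45), but another probe of that region, dim on both embryonic arrays, was called lower.

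Among probes detected on all 4 arrays, the 10 with the greatest fall, 1 per region, were named in the same way. The pool for this choice was 55 lower probes in 55 regions, so no region held 2 of them, whereas the higher probes shared regions. The leading probe, in chr14:33895294-33923644 on the reverse strand, read 3.12 and 2.55 in adult and -1.63 and -0.48 in embryonic spheres, a difference of -3.90 (SE 0.51, adjusted p = 0.00566). Of its 3 probes 2 were tested and both were lower. On the forward strand of the same coordinates all 3 probes were detected on all 4 arrays and their differences were positive, 0.83 to 1.11, with 1 of them called higher. In chr2:132079092-132086642, forward, the probe read 2.19 and 1.95 in adult and -1.81 and -1.43 in embryonic spheres, a difference of -3.69 (SE 0.37, adjusted p = 0.00552), and was the only one of 2 that was tested. The single probe of chr4:56013597-56020622, reverse, read 1.90 and 1.29 in adult and -1.72 and -1.54 in embryonic spheres, a difference of -3.22 (SE 0.39, adjusted p = 0.00552). In none of these did the groups overlap.

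The other lower regions of this group were chr18:5808025-5818625 forward (-3.04), chr2:151992806-152025456 reverse (-2.87), chr6:90745692-90777977 forward (-2.70), chr14:78924115-78938125 reverse (-2.61), chr13:54399275-54445825 reverse (-2.49), chr16:4867322-4874772 forward (-2.32) and chr9:24617562-24625262 reverse (-2.29). Their adjusted p in limma lay between 0.00601 and 0.0133. Several had probes in the same region that were not called. In chr16:4867322-4874772, 10 probes long, 3 were tested, all detected on all 4 arrays, and only the leading one was called, with differences from -2.32 to 0.66. In chr2:151992806-152025456 the 3 tested probes ran from -2.87 to 0.76, and in chr6:90745692-90777977 the 4 tested probes ran from -3.10 to 0.85 with 2 called lower. Calls of 2 of these probes, in chr16:4867322-4874772 and chr9:24617562-24625262, were lost with the arrays centred on the median of all probes (adjusted p = 0.0709 and 0.0685) and with no filter on dim probes (adjusted p = 0.0562 and 0.0506).

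**Figure D3:**
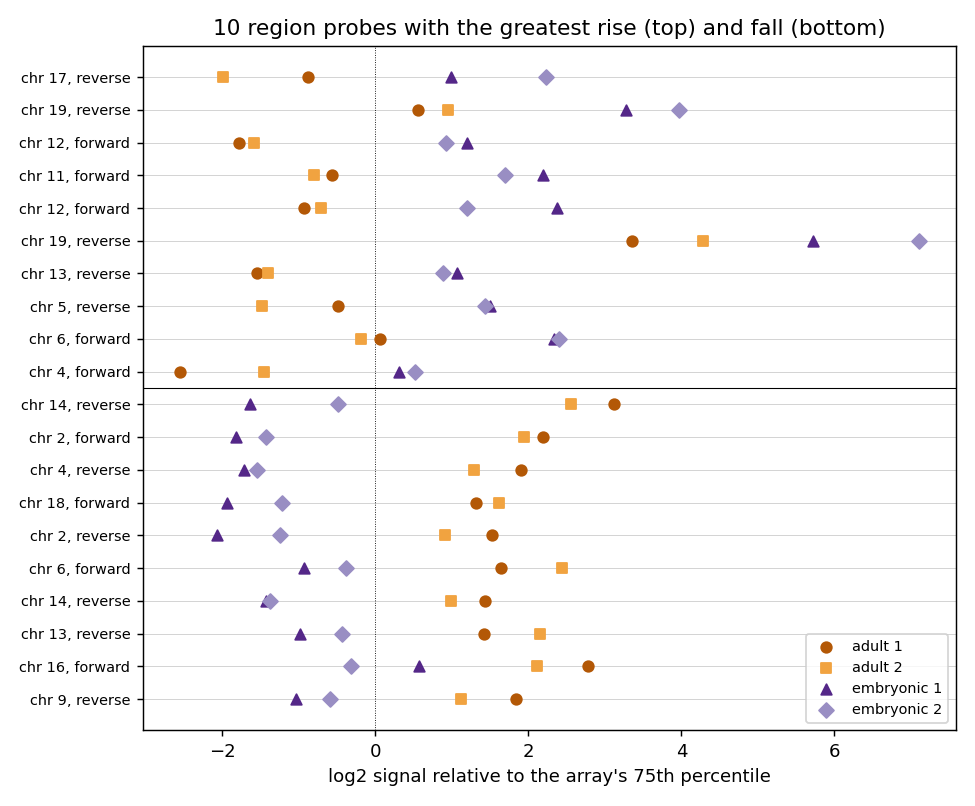
Log2 signal relative to the 75th percentile of the array (horizontal axis) of the 10 region probes with the greatest rise (top group) and the 10 with the greatest fall (bottom group), 1 marker per array. In each row both embryonic markers lie on one side of both adult markers, and the probe of chr19:5798135-5800557 has the greatest distance between its embryonic arrays, 5.72 and 7.10.

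Scaling bore on the named rises too. The call of the chr19:5798135-5800557 probe was lost with quantile normalization (1.83, adjusted p = 0.106) and with the 75th percentile over probes detected on all 4 arrays (1.65, adjusted p = 0.105). That of the chr4:126710640-126721240 probe was lost with the second of these (1.48, adjusted p = 0.0768) and with normexp background correction (1.07, adjusted p = 0.0505). Both were lost with no filter on dim probes (adjusted p = 0.0587 and 0.0511), and with centring on the probes detected on all 4 arrays (adjusted p = 0.0959 and 0.0712). No called probe among the 43 named was called in the opposite direction or changed the sign of its difference under an alternative that tested it. The filters on detection on all 4 arrays tested 23 of the 43, and the use of 1 probe per region 25.

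Some regions were bright in 1 group and dim in the other. The greatest bounded rise was that of chr1:163527603-163527999, forward, whose probe read -0.90 and 0.11 in embryonic spheres and was not well above background in adult spheres, at least 6.02-fold higher (adjusted p = 0.00828). After it came chr1:195332659-195335997 reverse (at least 5.89-fold), chr2:119697845-119719245 forward (at least 5.67-fold), chr16:4871449-4874336 reverse (at least 5.53-fold) and chr5:125861675-125880125 reverse (at least 5.06-fold). In chr1:195332659-195335997 all 3 probes were called higher, and both tested probes of an overlapping region on the same strand were higher as well. The same-strand region that overlaps chr16:4871449-4874336 had 4 tested probes, 0 called higher and 1 lower. These 5 had signals of -0.64 to -0.37 as an embryonic mean, below the 75th percentile of the array. With normexp background correction 4 of the 5, all but that in chr2:119697845-119719245, were no longer called.

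The 5 greatest bounded falls were probes bright on both adult arrays. The probe of chr15:3946037-3972747, forward, read 3.05 and 3.26 in adult spheres and -5.17 and -3.66 in embryonic spheres, where it was dim, and was at least 48.8-fold lower (adjusted p = 0.00552). The other probe of the region was also lower. Next came chr15:66682293-66722977 forward (at least 35.1-fold), chr3:108763862-108772151 reverse (at least 30.7-fold), chr15:79764481-79809909 reverse (at least 29.6-fold) and chr1:45800000-45834825 reverse (at least 27.9-fold). In all 5 both adult signals were 2.24 or higher, and the highest embryonic signal was -1.72. Other probes of these regions differed. In chr3:108763862-108772151, 3 of 4 tested probes were lower. In chr15:79764481-79809909 the other 2 tested probes, detected on all 4 arrays, were not called and differed by 0.71 and 0.93, and in chr15:66682293-66722977 and chr1:45800000-45834825 the leading probe was the only one tested.

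How far probes of 1 region moved together was counted over the 3385 regions with 3 or more probes. Of 265 such regions with a probe called higher, 170 (64.2%) had exactly 1, 51 had 2, 44 had 3 or more and 17 (6.42%) had every probe called higher. Of 1562 with a probe called lower, 1098 (70.3%) had exactly 1 and 13 (0.832%) had every probe called lower. Detection itself was patchy: of 961 regions with a probe detected on all 4 arrays, 633 (65.9%) had exactly 1 and 66 (6.87%) had every probe so detected. Over all regions, 232 had only higher calls, 1736 only lower calls and 78 both.

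Calls of other probes in the same region were counted beside each call. Over all tested region probes 9.49% were called higher and 48.0% lower, and no expected share was computed for neighbours. Of the 283 higher probes detected on all 4 arrays, 245 had another tested probe in the region, and for 180 of them (73.5%) another was also called higher, for 55 (22.4%) another was called lower. Of the 55 lower probes detected on all 4 arrays, 39 had another tested probe, with another lower one for 23 (59.0%) and a higher one for 5 (12.8%).

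The 17 regions in which every probe was higher hold 52 probes. Besides both chromosome 19 regions and chr1:195332659-195335997, they include chr8:19792940-19798868 forward (3 probes, 1.88 to 2.05), chr2:156213798-156216885 reverse (3 probes, 1.73 to 1.82) and chr13:94200051-94200598 reverse (3 probes, 1.85 to 2.15). Another 3 share 1 place on chromosome 17, the last 2 inside the first: chr17:39960567-39992817 forward (4 probes, 1.29 to 1.60), chr17:39980973-39981876 reverse (3 probes, 1.47 to 1.70) and chr17:39983902-39985688 forward (3 probes, 1.38 to 1.84). In the first of these 1 probe read 4.79 and 5.33 in adult and 6.35 and 6.81 in embryonic spheres, and both strands rose at this place. The probe of chr2:156213798-156216885 with the greatest difference read 1.92 and 2.10 in adult and 3.84 and 3.82 in embryonic spheres. Its arrays lay close together within each group and the groups differed by 1.82 (SE 0.35, adjusted p = 0.0115). All 52 probes had a positive difference under each of the 19 alternatives that tested them, while the number still called was 42 with the arrays centred on the tested probes, 38 in the deposited value table, 31 with normexp, 24 with quantile normalization, 5 with no filter on dim probes, 4 with the 75th percentile over probes detected on all 4 arrays and 0 with either adult array left out. Centred on the probes detected on all 4 arrays, 1 of the 42 tested was called.

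The 13 regions in which every probe was lower hold 39 probes, none detected on all 4 arrays. In chr8:12278818-12280657, forward, 1 probe read -0.35 and -0.68 in adult spheres and -5.37 and -3.95 in embryonic spheres, at least 3.82-fold lower (adjusted p = 0.00577), and the other 2 were at least 7.31-fold and 3.51-fold lower. In chr10:39405900-39406539, reverse, the 3 probes were at least 1.70-fold to 2.09-fold lower. All but 2 of the 39 probes were dim on both embryonic arrays, so their folds are bounds, and the other 2, in chr14:33115110-33131171 and chr18:38302523-38302756, were detected on 1 of them. Of the 39 probes 9 were still called with normexp background correction 30 with the arrays centred on the median of all probes and 0 with either adult array left out. A positive difference was found for 1 of them with that centring and with quantile normalization, and for 2 in the deposited value table.

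**Figure D4:**
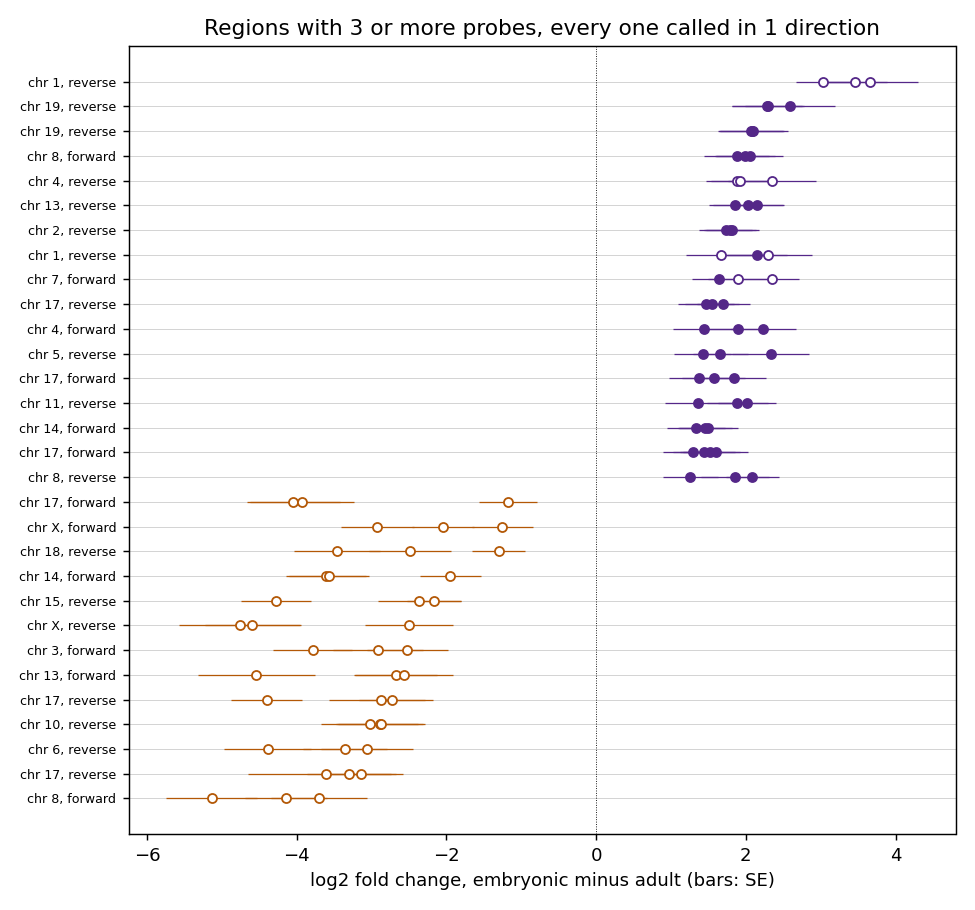
Log2 difference, embryonic minus adult, with its SE as bars (horizontal axis) for each probe of the 17 regions with every probe called higher and the 13 with every probe called lower. Filled points were well above background on all 4 arrays, open points were not: no probe of the lower regions is filled, and their differences spread from -5.14 to -1.17 against 1.26 to 3.66 in the higher regions.

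Calls were made on both strands at similar shares, and the difference was not tested. Of 2516 tested forward probes 220 (8.74%) were higher and 1223 (48.6%) lower, and of 2524 tested reverse probes 259 (10.3%) and 1194 (47.3%). At 1067 coordinates the array had probes for both strands. Both strands held a tested probe at 592 of them, but a probe detected on all 4 arrays was found on both strands at 137, on the forward strand alone at 214, on the reverse strand alone at 199 and on neither at 517. Higher calls were on the forward strand alone at 66, on the reverse strand alone at 83 and on both at 11. Lower calls were on both strands at 254, on the forward strand alone at 234 and on the reverse strand alone at 249.

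At 100 of the 1067 coordinates the strands had calls in opposite directions, and no expected count was computed. The 5 named were those with the greatest value of the smaller of the 2 absolute changes. In all 5 the lower probe was dim on both embryonic arrays. At chrX:90997595-91009570 a forward probe read 0.07 and 0.34 in adult and -5.13 and -3.63 in embryonic spheres, at least 6.30-fold lower, and 4 of 6 tested forward probes were lower. A reverse probe of the same coordinates read -2.95 and -4.41 in adult, where it was well above background on 1 array, and -0.59 and -0.49 in embryonic spheres (3.14, SE 0.55, adjusted p = 0.00929). At chr12:110944403-110988678 a forward probe read -1.86 and -4.23 in adult and -0.09 and 0.12 in embryonic spheres, and a reverse probe was at least 5.40-fold lower. The other 3 were also read from single probes. At chr15:61984389-62102500 a forward probe was at least 3.97-fold higher and a reverse probe at least 2.15-fold lower. They were the only ones called of that region's 4 tested forward and 3 tested reverse probes. The other tested forward probes differed by -0.26 to 1.25, and the reverse probe detected on all 4 arrays by 0.06. Overlapping forward regions had 6 tested probes, 1 higher and 2 lower. At chr11:120041124-120052299 a forward probe was at least 1.97-fold lower. At chr16:34524589-34573439 a forward probe was at least 2.92-fold lower and a reverse probe at least 4.71-fold higher. With normexp background correction 9 of these 10 probes were no longer called, all but the forward probe at chrX:90997595-91009570.

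Some region probes were nearly equal in both groups. The 3 detected on all 4 arrays with a difference nearest to 0 lay in chr17:88225376-88238756 reverse, chr11:96111499-96126224 reverse and chr2:176264400-176302925 forward. The first read 2.37 and 2.68 in adult and 2.48 and 2.57 in embryonic spheres. The chromosome 11 probe was bright in every sample, at 5.66 and 5.52 in adult and 5.12 and 6.05 in embryonic spheres, and the arrays of each group enclosed or overlapped those of the other. Each SE was 0.35 to 0.44, so these values are equal only within that error and under this scaling.

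The 3 regions with no strand in their name were chr17:12941161-12944859, chr6:52032838-52033444 and chr3:34856791-34869544, with 13 probes. In the chromosome 17 region 3 of 5 probes were tested and 1 was lower, reading -0.41 and 0.24 in adult and -1.31 and -1.67 in embryonic spheres (-1.40, SE 0.41, adjusted p = 0.035), while the probe detected on all 4 arrays differed by -0.06. In the chromosome 3 region 2 of 3 probes were lower, both dim on the embryonic arrays. None of the 5 probes of the chromosome 6 region was tested.

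The calls were spread over every chromosome with region probes, 1 to 19 and X. The share of tested region probes called higher ran from 3.94% on chromosome 9 to 17.9% on chromosome 17, and the share called lower from 38.5% on chromosome 17 to 56.6% on chromosome 3. On every chromosome more probes were called lower than higher. Among probes detected on all 4 arrays, 36 of 130 (27.7%) were higher on chromosome 17, 10 of them at the place of nested regions named above, and 1 of 78 on chromosome 15, against 31% of all probes so detected. The chromosome 15 count was 9 with quantile normalization and in the deposited value table. Fitting only probes detected on all 4 arrays gave 10, an intensity trend 11 and centring on the median of all probes 63. With normexp, with centring on the tested probes and with the 75th percentile over probes detected on all 4 arrays it was 0. On chromosome 17 the count was 22 with quantile normalization and 31 in the deposited value table. Fitting only probes detected on all 4 arrays gave 49 there, an intensity trend 51 and centring on the median of all probes 102. Normexp gave 26 and centring on the tested probes 27. With the 75th percentile over probes detected on all 4 arrays 1 of the 130 was called higher and 9 lower. The median difference of these probes was 0.73 on chromosome 17 and 0.54 on chromosome 15. Differences between chromosomes were not tested.

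**Figure D5:**
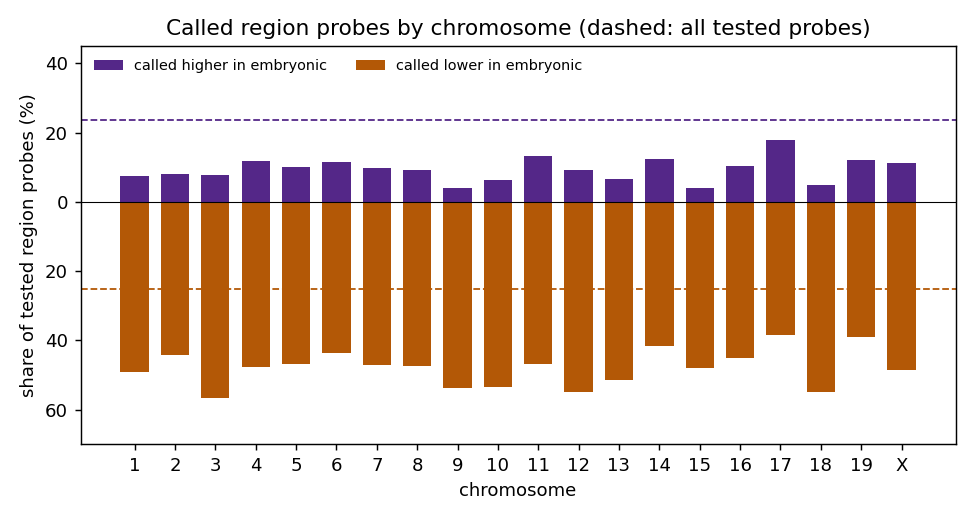
Share of tested region probes (percent, vertical axis) called higher (upward bars) and lower (downward bars) in embryonic spheres on chromosomes 1 to 19 and X, with dashed lines for the shares over all tested probes, 23.7% and 25.1%. Every upward bar stays below its line and every downward bar passes its line, with chromosome 17 at 17.9% and 38.5%.

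Known long noncoding RNA genes with RefSeq accessions were read beside the regions. Of 49 listed, 31 were on the array under an accession, 22 of them detected on both adult and 21 on both embryonic arrays. Each gene was read from its brightest tested probe, those measured on all 4 arrays first. Of 23 tested, 10 rose and 2 fell in embryonic spheres on the probe read, against 23.7% and 25.1% of all tested probes. The probe read was detected on all 4 arrays for 20 of the 23, and of all probes so detected 31% were higher and 2.06% lower. Among genes not called on the probe read, Kcnq1ot1 had another probe called lower, by -1.69, and 2 of 3 Tug1 probes were called higher. Their median log2 difference was 1.05, against 0.58 over all tested probes and 0.92 over all those detected on all 4 arrays, the kind read first. With the 75th percentile over probes detected on all 4 arrays or no filter on dim probes 2 were called higher and 2 lower, with quantile normalization 4 and 2, with normexp 6 and 0, and with centring on the median of all probes 21 and 2. With either adult array left out none was called in limma. Malat1, a very abundant RNA of nuclear speckles, read 0.83 and 1.25 in adult and 3.46 and 4.26 in embryonic spheres (2.82, SE 0.44, adjusted p = 0.00731). Meg3, an imprinted RNA transcribed from the maternal chromosome, read 1.30 and 1.28 in adult and 5.00 and 4.39 in embryonic spheres (3.40, SE 0.39, adjusted p = 0.00552), but of its 3 tested probes 1 was called lower, by -2.09. The groups did not overlap for either gene.

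The small nucleolar RNA host genes Snhg1 (1.93, SE 0.57, adjusted p = 0.0355) and Snhg12 (1.89, SE 0.59, adjusted p = 0.041) were higher. Snhg3 (0.93), Snhg5 (0.11) and Snhg6 (0.90) were tested and not called. Airn, the antisense RNA that silences Igf2r on the paternal chromosome, was higher (1.92, SE 0.47, adjusted p = 0.0217), while its other tested probe differed by 0.40 and was not called. Both lower genes are transcribed beside homeobox genes and were dim on both embryonic arrays: Hottip, from the end of the Hoxa cluster, read -1.37 and -0.68 in adult spheres and was at least 2.69-fold lower (adjusted p = 0.00766), and Dlx6os1 averaged -0.84 there and was at least 3.06-fold lower (adjusted p = 0.00735). All 10 higher genes were read from probes detected on all 4 arrays. The regions were not matched to these genes.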

How the data were processed

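RNA of 2 adult and 2 embryonic thymosphere samples was measured on 4 arrays, grouped by their titles. The deposited scanner files hold the intensity of each spot, which per the file headers had its background subtracted and a spatial trend removed within the array by Agilent Feature Extraction 10.7.3.1, with no step between arrays. Other columns used are flags per spot. A deposited table of linear intensity values, all columns of which share 1 maximum and have medians of 34.4 to 35.7, was an alternative. In log2 its columns correlated at 0.994 to 0.998 with the raw signal of their own array and at most 0.969 with that of another, and how they were scaled and centred stays unknown.

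The processed signal was put on the log2 scale and each array's 75th percentile, over all spots that are not controls, was subtracted. Outlier spots were left out of the fit, and spots of 1 probe were averaged. Embryonic minus adult was fitted over all tested probes in R 4.3.3 with lmFit and eBayes of limma 3.58.1, without covariates. The fit was run on simulated data with independent normal noise, which does not bear on the filter, the scaling or probes near background. A total of 28026 probes were named through RefSeq accessions of the mouse annotation, used for names only. Precision is limited by the small number of arrays.

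Named regions are those with the 10 greatest rises and 10 greatest falls among called probes detected on all 4 arrays with no overlap between groups, 1 probe per region. To these come the 5 greatest bounded changes per direction, 5 coordinates with strands called in opposite directions, the 3 probes nearest to 0, and up to 5 called genes per direction of the long noncoding RNA list. A rule on neighbouring genes named none, since nearest genes were not assigned. Other regions were named after their values were seen. The members and lists were chosen with earlier results of these data known. Alternatives changed the background correction (normexp on the median spot and background signals with offset 50, because no mean signal column was used), the normalization or centring, the filter, outlier spots, eBayes options, the replicate block, single arrays and the number of probes per region.

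Replicate numbers are shared by the groups. After scaling, same-numbered samples did not deviate together across probes (correlation of deviations 0.088 over all tested probes), so the fit has no block. Before scaling, the 75th percentile was 132 and 126 on the arrays numbered 1 and 66.0 and 61.5 on those numbered 2. The correlation cannot show such a shift of whole arrays, since the scaling removes it first.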

Additional observations from a re-analysis of the deposited data

How the results depend on the processing

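The report's 3 summary values, 479 region probes higher, 2420 lower and a median of -1.31, changed as follows. With normexp background correction they were 113, 609 and -0.34. Quantile normalization gave a median of -0.79. Centring on the median of all probes gave 1817 higher and a median of -0.12, and centring on the tested probes a median of -1.52. The 75th percentile over probes detected on all 4 arrays gave 60 higher and a median of -2.25, and over spots without outliers, an alternative chosen after seeing the data, a median of -1.35. The deposited value table gave 1479 lower and a median of -0.32. With no filter on dim probes 101 were higher and the median was -0.45, with outlier spots kept the median was -2.02, and with 1 probe per region the values were 219, 1357 and -1.20. Asking for detection on all 4 arrays left 80 lower and turned the median to 0.64. That filter drops the 2851 probes tested through the adult arrays only and the 434 tested through the embryonic arrays only. With that filter and centring on the probes detected on all 4 arrays, also chosen after seeing the data, the values were 11, 160 and -0.28. The causes of these changes were not tested. Leaving out 1 array gave 0 to 552 higher, 0 to 2477 lower and medians from -1.29 to -1.22, with no call once either adult array was missing and the lone sample assumed to vary like the other group.

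The replicate block gave 470 higher, 2425 lower and a median of -1.32, and no named probe lost its call with it. With the weaker detection flag the shares of region probes were 85.6%, 59.2%, 56.9% and 41.4%. Of 43 named probe values, 14 lost their call with normexp, 6 with no filter and 40 without either adult array.

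The data are 4 arrays, and a large part of the region probes was near background: 5546 were detected on no array, so no level can be given for them, and 2086 of the 2420 falls are bounds. Adult array 2 had the most outlier spots among region probes, 757 against 0 to 13 on each of the others.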
